A study of Mus musculus with 20 samples.

Results

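The genes described here are 9 receptor genes for noradrenaline, adrenaline and histamine, 9 of the 55471 genes in the count table. They were chosen by symbol, with no cut on measured values but with earlier results of these data known. They are Adra1a, Adra1b, Adra1d, Adra2a, Adra2c, Adrb1, Hrh1, Hrh2 and Hrh3, each matched to 1 Ensembl gene through the GRCm38 annotation. In 20 libraries, RNA was sequenced from slices of the hypothalamus of C57BL/6 mice, all wild type. The control group (7 libraries) ate a control diet ad libitum. A second group (7 libraries) had free access to a risperidone diet, and the last (6 libraries) received the risperidone diet by pair-feeding. Risperidone was given for 4 weeks. No pair-fed group on the control diet was analysed here, so the pair-fed comparison with the control differs in both drug and feeding regime. The labels state no body weight difference from mice on control food but leave unclear whether this covers both feeding regimes, and they give no age and do not tie each library to its own mouse. The p-values therefore measure the spread between libraries, which may be partly technical.

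Noradrenaline and adrenaline act through G protein-coupled receptors: alpha-1 receptors (Adra1a, Adra1b, Adra1d) couple to Gq and raise calcium, alpha-2 receptors (Adra2a, Adra2c) couple to Gi and lower cyclic AMP, and beta-1 receptors (Adrb1) couple to Gs and raise it. Histamine, made in the brain by neurons of the tuberomammillary nucleus of the hypothalamus, acts on H1 (Gq), H2 (Gs) and H3 (Gi) receptors, and H3 also sits on the histamine neurons themselves, where it restrains histamine synthesis and release. Risperidone, an antipsychotic that blocks dopamine D2 and serotonin 5-HT2A receptors, also binds alpha-1, alpha-2 and H1 receptors, and H1 block is a known correlate of antipsychotic weight gain.

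Depth was even in 19 libraries, between 17316043 and 18606543 counted fragments, while ad libitum risperidone library 3 held 9748005. That library had 22.1% of its counts in annotated ribosomal RNA genes, against 2.25% to 5.18% in the others. Ad libitum risperidone library 1 carried high levels of genes typical of cortex, hippocampus and amygdala. The 11 listed markers summed to 1384 CPM there, against 92.7 to 220.8 CPM in the other 19 libraries. CPM are counts per 1000000 of the scaled library size described with the processing, not of the raw total. The hypothalamus markers summed to 647.2 CPM in that library and to between 977.1 and 1704 CPM in the other 19.

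No receptor gene passed the test in any of the 4 comparisons. A gene was called when its adjusted p in edgeR's quasi-likelihood test, corrected over all 17893 genes tested, was under 0.05. For ad libitum risperidone against control, 0 of 9 receptor genes were called, where 0.0615% of all genes were. For pair-fed risperidone against control it was 0 of 9 beside 0.486% of all genes, for pair-fed against ad libitum risperidone 0 of 9 beside 0.397%, and for both risperidone groups together against control 0 of 9 beside 0.33%. At an unadjusted p under 0.05 in edgeR there were 2 receptor genes (Adra1d and Hrh1), 1 (Adra1b), 2 (Adra1a and Adra1d) and 3 (Adra1b, Adra1d and Hrh1) in these comparisons, in that order, where 13.1%, 6.66%, 13.5% and 7.82% of all genes lay under it. DESeq2 and limma-voom also called none of the receptor genes. The comparisons with the control share its libraries, and the comparison of the risperidone groups shares their libraries with both, so their values are not independent of one another.

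The fitted log2 fold changes of the 9 genes had a median of 0.08 for ad libitum risperidone against control (6 above 0, 3 below), where the median over all genes was 0.01. Without ad libitum library 1 the median of the 8 receptor genes still tested was -0.03 (3 above 0, 5 below). Pair-fed against control, the receptor median was -0.07 (3 above 0, 6 below) and that of all genes 0.00. Between the pair-fed and ad libitum groups it was -0.11 (1 above 0, 8 below), and that of all genes -0.00. Without ad libitum library 1 that receptor median was -0.05 (3 above 0, 5 below, 8 tested). The CPM ranges of the groups overlapped for all 9 genes in each of the 3 pairs of groups. For comparison, 0.33%, 1.2% and 0.632% of all genes had ranges that did not overlap in the same pairs. In tissue RNA, fewer cells of a type and less RNA per cell cannot be told apart.

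**Figure D1:**
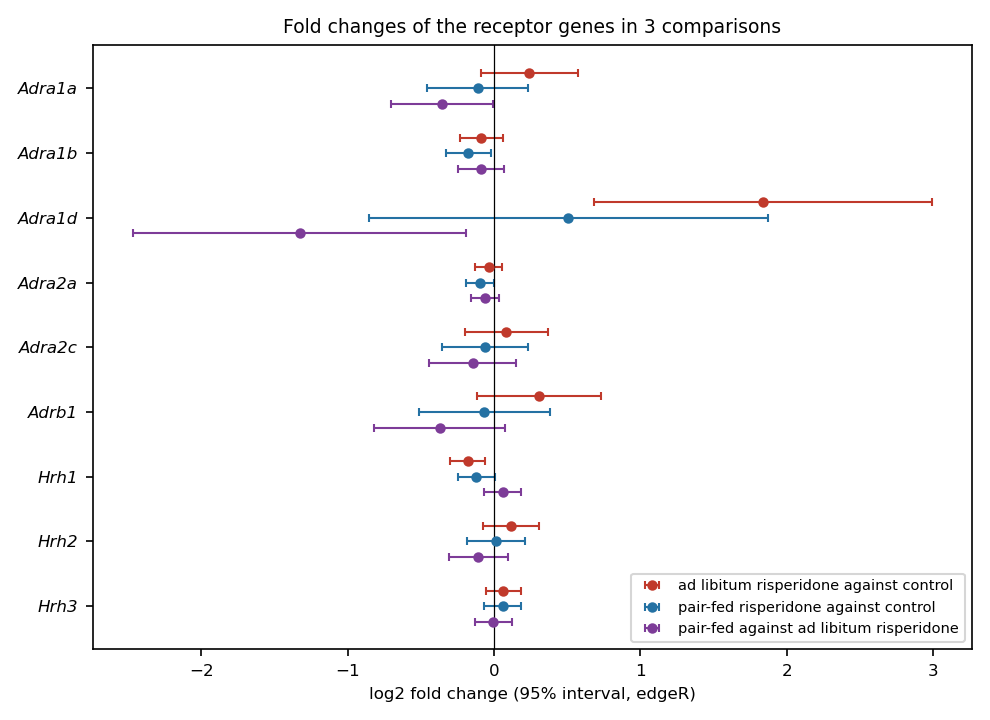
Fitted log2 fold change of each receptor gene (points) with its 95% interval (bars) from edgeR in 3 comparisons; the vertical line marks no difference. Points of the other 8 genes lie within 0.4 of 0, and Adra1d, the gene with the fewest counts, has the widest intervals and reaches 1.84 in the ad libitum comparison.

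Hrh1 encodes the H1 receptor, the histamine receptor that risperidone binds, and lies on chr6:114397936-114483296 (plus strand, 12 annotated exons). In the control group Hrh1 had between 26.3 and 29.7 CPM with a median of 28.0 (28.2 ± 1.12, SD, n = 7). With ad libitum risperidone its level ran from 19.7 through a median of 24.9 to 28.2 CPM (24.7 ± 2.96, SD, n = 7). The pair-fed libraries lay between 23.9 and 27.0 CPM around a median of 26.1 (25.9 ± 1.10, SD, n = 6). None of the 7 ad libitum and none of the 6 pair-fed libraries exceeded the control mean, and 4 and 3 of them lay below the lowest control library, yet the ranges overlapped. Ad libitum library 2, at 28.2 CPM, was level with the control mean, and the share of all genes with such a pattern was not computed.

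The fitted log2 fold change of Hrh1 was -0.18 ± 0.06 (SE) in the ad libitum group, a difference of -11.8% with a 95% interval from -19.0% to -3.99% (edgeR adjusted p = 0.222). It was -0.12 ± 0.06 in the pair-fed group (interval -15.8% to 0.292%, edgeR adjusted p = 0.767). Over both risperidone groups Hrh1 had a value of -0.15 ± 0.05 (edgeR adjusted p = 0.401). Without libraries 1 and 3 of the ad libitum group, the ad libitum value was -0.16 ± 0.05 (edgeR adjusted p = 0.188). Library 3, the shallow one, held the lowest Hrh1 level of the 20. Across 28 alternative analyses the ad libitum value stayed between -0.22 and -0.14 with adjusted p from 0.135 to 0.366. The pair-fed value lay between -0.14 and -0.10 with adjusted p from 0.211 to 0.980. Between the 2 risperidone groups Hrh1 differed by 0.06 ± 0.06 (interval -4.67% to 13.8%, edgeR adjusted p = 0.696). The summed hypothalamus markers lay between 1307 and 1704 CPM in control libraries, between 647.2 and 1503 with ad libitum risperidone and between 993.5 and 1482 with pair-feeding. The Pearson correlation of Hrh1 with the mean log2 CPM of these markers was 0.133 over 20 libraries and 0.325 over the 18 without those 2, and the part of tissue composition in the Hrh1 values was not tested.

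Promoter windows are shown for 4 receptor genes. Hrh1 exceeded the control mean in none of the 13 risperidone libraries, and Hrh3 had the most transcript per length. Adra2c and Adrb1 were the pair with the highest correlation over all 20 libraries (0.872, but 0.468 without ad libitum libraries 1 and 3). Each is the 250 bases before an annotated RefSeq start (GRCm38.p6), read on the gene's strand; Hrh1 has 4 such starts and the first is shown. Capitals mark a GC box (GGGCGG on either strand; a pair of them overlaps in Hrh3) or a half-site of the cyclic AMP response element (TGACG on either strand). A GC box is in 32.7% and the half-site in 17.8% of all 32851 windows of this length, and a match describes letters only. The Hrh1 window, chr6:114397686-114397935 (plus strand), is 71.2% G and C and holds 2 GC boxes. The Hrh3 window, chr2:180104408-180104657 (minus strand), is 80.8% G and C and holds 4. The Adrb1 window, chr19:56721867-56722116 (plus strand), is 74.0% G and C and holds 1 GC box and 1 half-site. The Adra2c window, chr5:35278316-35278565 (plus strand), is 53.6% G and C and holds neither. In the annotation used for symbols and lengths, Adra2c starts at base 35278319, so most of its window lies inside the annotated exon. Part of the Hrh3 window lies inside that gene too, which there begins at base 180104488. The median over all windows was 52.4%.
Hrh1: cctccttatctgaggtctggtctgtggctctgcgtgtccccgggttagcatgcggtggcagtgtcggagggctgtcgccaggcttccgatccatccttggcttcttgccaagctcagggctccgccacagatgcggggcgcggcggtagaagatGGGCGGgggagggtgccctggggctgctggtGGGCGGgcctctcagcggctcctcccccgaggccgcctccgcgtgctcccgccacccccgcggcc
Hrh3: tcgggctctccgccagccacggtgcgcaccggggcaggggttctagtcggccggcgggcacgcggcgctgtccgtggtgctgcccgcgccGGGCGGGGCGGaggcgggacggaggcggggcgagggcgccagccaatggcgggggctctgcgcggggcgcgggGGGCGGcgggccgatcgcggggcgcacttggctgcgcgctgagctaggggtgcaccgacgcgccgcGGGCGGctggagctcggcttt
Adrb1: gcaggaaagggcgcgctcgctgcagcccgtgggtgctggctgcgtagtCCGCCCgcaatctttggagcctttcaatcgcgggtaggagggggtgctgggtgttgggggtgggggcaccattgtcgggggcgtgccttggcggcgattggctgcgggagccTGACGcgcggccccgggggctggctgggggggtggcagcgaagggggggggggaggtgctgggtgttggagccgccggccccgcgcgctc
Adra2c: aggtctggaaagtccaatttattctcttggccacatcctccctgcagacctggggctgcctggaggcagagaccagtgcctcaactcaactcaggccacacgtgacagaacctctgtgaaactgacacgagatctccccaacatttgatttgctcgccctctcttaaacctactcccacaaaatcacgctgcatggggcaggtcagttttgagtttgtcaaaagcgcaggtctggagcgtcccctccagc

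Hrh2 encodes the H2 receptor, which raises cyclic AMP (chr13:54192129-54236180, plus strand). Control libraries had 7.997 to 10.7 CPM of Hrh2 with a median of 9.28 (9.39 ± 0.867, SD, n = 7), ad libitum libraries 9.05 to 12.1 with a median of 9.84 (10.2 ± 1.14, SD, n = 7) and pair-fed libraries 7.35 to 11.5 with a median of 9.60 (9.46 ± 1.47, SD, n = 6). The groups overlapped, and 2 ad libitum libraries lay above the highest control. The log2 fold change was 0.12 ± 0.09 (SE) for ad libitum against control (edgeR adjusted p = 0.614), 0.01 ± 0.10 for pair-fed against control and -0.11 ± 0.10 between the risperidone groups. The interval of the ad libitum difference ran from -4.93% to 23.8%.

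Hrh3, which encodes the H3 receptor, lies on chr2:180099465-180104488 (minus strand) and was the receptor gene with the highest counts, 463 to 1362 per library. Its level was 61.2 to 72.7 CPM in the control libraries with a median of 63.4 (65.2 ± 4.76, SD, n = 7). Ad libitum libraries gave 63.0 to 79.4 with a median of 65.5 (68.1 ± 5.53, SD, n = 7), and pair-fed libraries 61.4 to 75.8 with a median of 67.7 (67.9 ± 5.44, SD, n = 6). The 3 groups overlapped almost fully, and the highest value, 79.4 CPM, came from ad libitum library 1. Hrh3 differed from the control by 0.06 ± 0.06 (SE) on the log2 scale in the ad libitum group (interval -3.88% to 13.6%, edgeR adjusted p = 0.681) and by 0.06 ± 0.06 in the pair-fed group (interval -4.47% to 13.6%, edgeR adjusted p = 0.968). Without library 1 the ad libitum value of Hrh3 was 0.02. Between the risperidone groups the value was -0.00 (interval -8.60% to 8.72%), or 0.04 without library 1. Hrh2 and Hrh3 each share exon sequence with an antisense gene (145 and 349 bases), as does Adra1d (147 bases), and whether the counting used strand is not given in the sources used here.

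**Figure D2:**
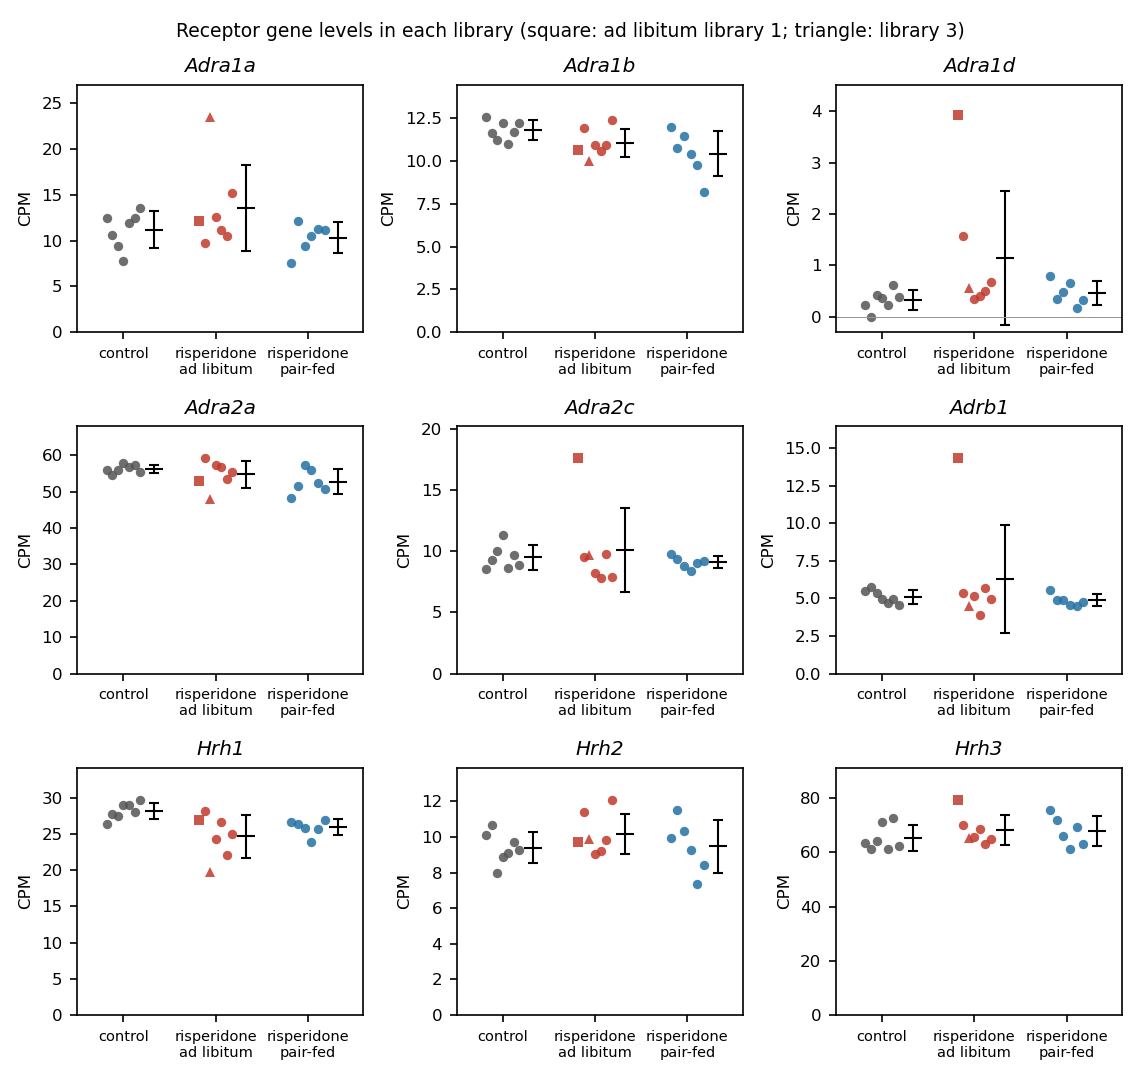
Level of each receptor gene in CPM (linear axes) in the 7 control, 7 ad libitum risperidone and 6 pair-fed risperidone libraries (points), with the mean and SD of each group as bars; the square is ad libitum library 1 and the triangle library 3. The groups overlap in every panel, and single libraries stand far above their group for Adra1a (23.5 CPM, library 3), Adra1d (3.93), Adra2c (17.6) and Adrb1 (14.3, all library 1).

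Among the alpha-1 genes, Adra1b (chr11:43774606-43901210, minus strand) varied least. Its level was 10.99 to 12.6 CPM in control libraries with a median of 11.7 (11.8 ± 0.579, SD, n = 7). It was 10 to 12.4 with a median of 10.9 in ad libitum libraries (11.1 ± 0.834, SD, n = 7) and 8.20 to 11.97 with a median of 10.6 in pair-fed libraries (10.5 ± 1.34, SD, n = 6). The upper ends were alike, and 5 of 7 ad libitum and 4 of 6 pair-fed libraries lay below the lowest control library. The log2 fold change of Adra1b was -0.09 ± 0.07 (SE) in the ad libitum group (edgeR adjusted p = 0.638) and -0.18 ± 0.07 in the pair-fed group (interval -20.5% to -1.64%, edgeR adjusted p = 0.625). Over both risperidone groups it was -0.13 ± 0.06 (edgeR adjusted p = 0.620). Across the alternatives the pair-fed value of Adra1b ran from -0.22 to -0.12 with adjusted p from 0.158 to 0.893.

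Adra1a (chr14:66635251-66771168, plus strand) had 1 library far above the other 19. Control libraries held 7.80 to 13.6 CPM with a median of 11.9 (11.2 ± 2.02, SD, n = 7), ad libitum libraries 9.75 to 23.5 with a median of 12.2 (13.6 ± 4.73, SD, n = 7) and pair-fed libraries 7.50 to 12.1 with a median of 10.8 (10.3 ± 1.65, SD, n = 6). The 23.5 CPM were those of ad libitum library 3, 2.11 times the control mean, and rest on 167 counts in the shallow library. That CPM is relative to the scaled library size, and 22.1% of the counts of library 3 were in annotated ribosomal RNA genes. The part of the scaling in this value was not tested. The log2 fold change was 0.24 ± 0.16 (SE) for ad libitum against control (edgeR adjusted p = 0.537) and -0.35 ± 0.17 for pair-fed against ad libitum (edgeR adjusted p = 0.362). Without library 3 the same values for Adra1a were 0.09 and -0.20. Pair-fed against control it was -0.11 ± 0.17 (interval -27.2% to 17.5%, edgeR adjusted p = 0.994).

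Adra1d (chr2:131545850-131562283, minus strand) was near the limit of detection, with 0 to 65 counts per library. Control libraries had 0 to 0.624 CPM with a median of 0.366 (0.322 ± 0.196, SD, n = 7). Ad libitum libraries spanned 0.340 to 3.93 with a median of 0.563 (1.14 ± 1.30, SD, n = 7), and pair-fed libraries 0.167 to 0.783 with a median of 0.415 (0.459 ± 0.228, SD, n = 6). All 7 ad libitum libraries exceeded the control mean and 3 exceeded the highest control. Library 1 stood at 12.2 times the control mean, and library 2, the next highest, at 1.57 CPM. The log2 fold change of Adra1d was 1.84 ± 0.56 (SE; interval 0.68 to 2.99, edgeR adjusted p = 0.193) for ad libitum against control. Without libraries 1 and 3 it was 1.12 (edgeR adjusted p = 0.295), and without library 1 alone the gene was under the low-count filter. Library 2 stays in the fit without libraries 1 and 3. Its cortex, hippocampus and amygdala markers summed to 220.8 CPM, the highest of the 19 libraries other than library 1. Pair-fed against control the value was 0.51 ± 0.66 (edgeR adjusted p = 0.989), and between the risperidone groups -1.33 ± 0.55 (edgeR adjusted p = 0.312), or -0.62 without libraries 1 and 3. Adra1d passed the low-count filter through a few libraries only, and it was under the filter in 6 of the 28 alternatives.

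Adra2a and Adra2c encode the alpha-2A and alpha-2C receptors, which act both on noradrenergic terminals and on their target neurons. Adra2a (chr19:54044151-54048982, plus strand) was the steadiest receptor gene in the control group, with 54.7 to 57.8 CPM and a median of 56.0 (56.3 ± 1.08, SD, n = 7). Ad libitum libraries lay between 48.0 and 59.2 with a median of 55.6 (54.8 ± 3.67, SD, n = 7) and pair-fed libraries between 48.3 and 57.4 with a median of 52.0 (52.7 ± 3.42, SD, n = 6). Of the pair-fed libraries, 4 of 6 were below the lowest control library, as were 3 of 7 ad libitum libraries. Adra2a had a log2 fold change of -0.04 ± 0.04 (SE) in the ad libitum group (interval -8.48% to 3.95%, edgeR adjusted p = 0.776) and of -0.10 ± 0.05 in the pair-fed group (interval -12.4% to 0.00782%, edgeR adjusted p = 0.750). The risperidone groups differed by -0.06 ± 0.05 (edgeR adjusted p = 0.582). Without libraries 1 and 3 the Adra2a values were 0.00 for ad libitum against control and -0.10 between the risperidone groups.

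Adra2c (chr5:35278319-35281763, plus strand, 1 exon) had 8.55 to 11.4 CPM in the control libraries with a median of 9.30 (9.49 ± 0.994, SD, n = 7) and 8.37 to 9.79 in the pair-fed libraries with a median of 9.12 (9.10 ± 0.490, SD, n = 6). Ad libitum libraries ran from 7.79 to 17.6 with a median of 9.55 (10.1 ± 3.43, SD, n = 7). The 17.6 CPM belonged to library 1, 1.85 times the control mean, and the other 6 stayed at or below 9.78. Adra2c differed from the control by 0.08 ± 0.14 (SE) on the log2 scale in the ad libitum group (edgeR adjusted p = 0.844) and by -0.06 ± 0.14 in the pair-fed group (edgeR adjusted p = 0.998). Without library 1 the sign of the ad libitum value turned, to -0.12, and between the risperidone groups it went from -0.15 ± 0.14 to 0.05.

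Adrb1 (chr19:56722199-56733113, plus strand), the beta-1 receptor gene, followed the same library. Its control libraries had 4.53 to 5.73 CPM with a median of 4.97 (5.11 ± 0.443, SD, n = 7), and its pair-fed libraries 4.51 to 5.59 with a median of 4.84 (4.88 ± 0.389, SD, n = 6). The ad libitum libraries spanned 3.89 to 14.3 with a median of 5.15 (6.27 ± 3.60, SD, n = 7), where 14.3 CPM, 2.81 times the control mean, was library 1. Adrb1 had a log2 fold change of 0.31 ± 0.21 (SE) for ad libitum against control (edgeR adjusted p = 0.542), of -0.07 ± 0.22 for pair-fed against control and of -0.37 ± 0.21 between the risperidone groups (edgeR adjusted p = 0.445). Without library 1 the ad libitum value turned to -0.04 and that between the risperidone groups was -0.02.

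**Figure D3:**
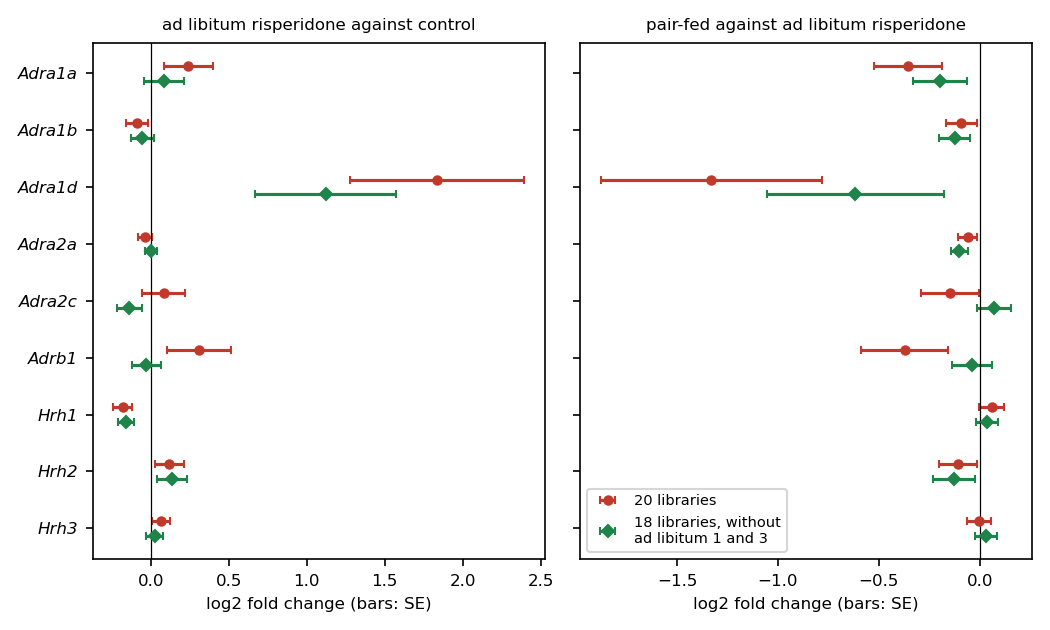
Log2 fold change of the receptor genes (points) with its standard error (bars) from all 20 libraries (red circles) and without ad libitum libraries 1 and 3 (green diamonds), for ad libitum risperidone against control (left) and pair-fed against ad libitum risperidone (right). On the left Hrh1 goes from -0.18 to -0.16, Adra1d goes from 1.84 to 1.12, Adrb1 from 0.31 to -0.03 and Adra2c from 0.08 to -0.14.

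Ad libitum library 1 held the highest level of the 20 libraries for 4 receptor genes: Adra1d, Adra2c, Adrb1 and Hrh3. Of the 11 cortex, hippocampus and amygdala markers, 10 were tested. All 10 had values above 0 in the ad libitum comparison and 0 passed the test, with a median log2 fold change of 1.48, or 0.30 without library 1. Their sum over all 11 was 102.2 to 132.2 CPM in the control libraries and 92.7 to 121.3 in the pair-fed. It was 108.9 to 220.8 in the other 6 ad libitum libraries, highest in library 2. In library 1 the marker Slc17a7, a vesicular glutamate transporter gene of cortical neurons, stood at 698.9 CPM, and none of the listed markers was at 0 there. Across 20 libraries the log2 CPM of Adrb1 correlated with the mean log2 CPM of the 10 tested markers at Pearson r = 0.867, Adra2c at 0.840, Adra1d at 0.767 and Hrh3 at 0.625. Over the 18 libraries without 1 and 3 these were 0.032, 0.239, 0.573 and 0.400. Depth and library are shared by all values in such a correlation, and the part of the surrounding tissue in the receptor values was not tested.

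**Figure D4:**
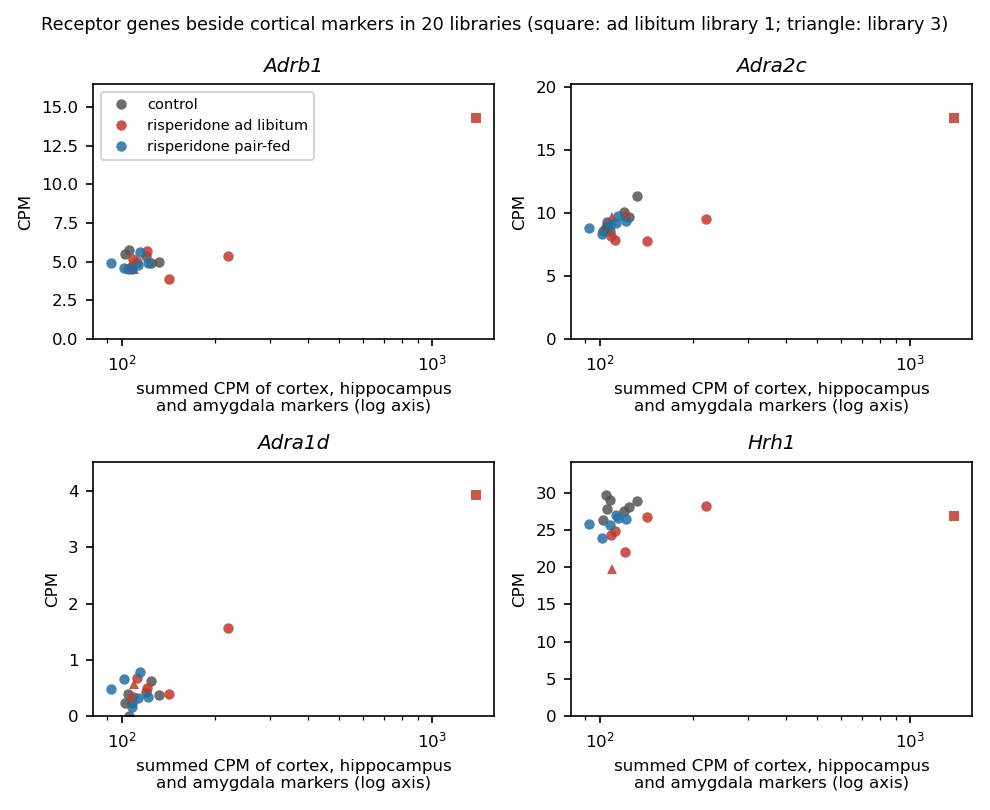
Receptor gene level in CPM (vertical axes) against the summed level of 11 cortex, hippocampus and amygdala markers in CPM (horizontal log axes) in each of the 20 libraries for Adrb1, Adra2c, Adra1d and Hrh1, coloured by group. Ad libitum library 1 (square) lies alone at 1384 CPM of markers, with the highest level of Adrb1, Adra2c and Adra1d but not of Hrh1.

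Per length of transcript the order of the genes was nearly the same in all groups. In the control group, on the CPM per kilobase scale over all annotated exons, Hrh3 had 20.7 ± 1.51 (SD, n = 7), Adra2a 11.7 ± 0.223 and Hrh1 6.33 ± 0.252, with ranges that did not overlap. Adra1b followed with 3.49 ± 0.171 and Adra2c with 2.76 ± 0.288, whose ranges did overlap. Hrh2 (1.58 ± 0.146), Adrb1 (1.51 ± 0.131) and Adra1a (1.28 ± 0.232) formed a chain in which each neighbour overlapped the next, and Adra1d was lowest at 0.169 ± 0.103. In the pair-fed group the order was identical. Ad libitum, Adrb1 stood above Hrh2 with overlapping ranges. There Adrb1 had 14.3 CPM in library 1, against a mean of 5.01 CPM in the 5 libraries other than 1 and 3. Taking the longest transcript in place of all exons moved Adra1a from the eighth to the sixth place in the control group, at 2.61 CPM per kilobase.

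**Figure D5:**
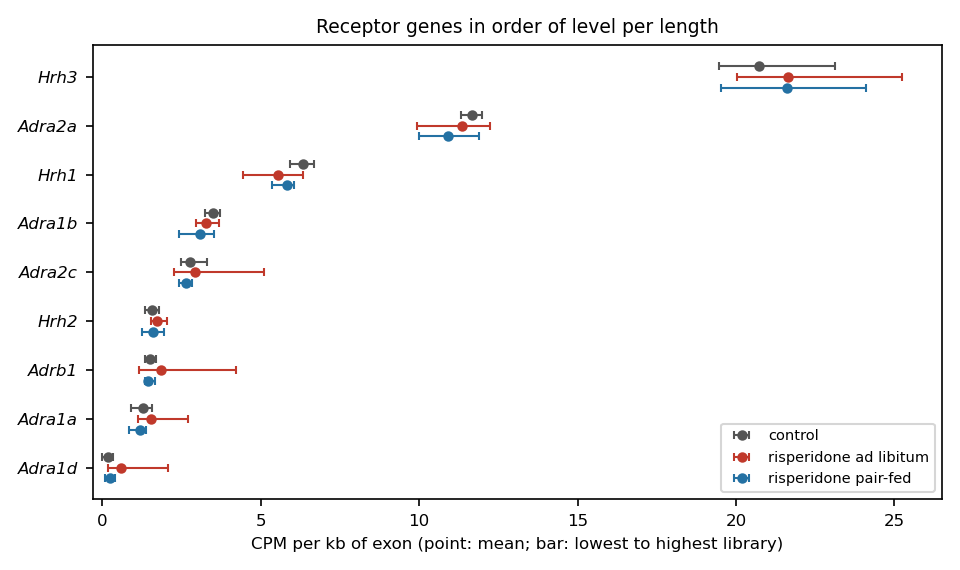
Level of each receptor gene in CPM per kilobase of annotated exons (linear axis) in the 3 groups, with points for the mean and bars from the lowest to the highest library, in the order of the control means. Hrh3, Adra2a and Hrh1 stand apart from the rest, between 20.7 and 6.33 in the control group, and Adra1d lies lowest at 0.169.

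Levels of the receptor genes were also compared with one another. Over 36 pairs the median Pearson r of log2 CPM across 20 libraries was 0.072, and 6 pairs exceeded 0.5, each of them made up of genes highest in ad libitum library 1. The highest was Adra2c with Adrb1 at 0.872, which was 0.468 over 18 libraries. Over the 18 libraries Adra1b with Hrh2 was highest, at 0.521, and the largest in size was negative, Adra1a with Adra2c at -0.666 (-0.125 over 20). Hrh2 ran against the mean log2 CPM of the hypothalamus markers, with r = -0.623 over 20 and -0.712 over 18 libraries. These correlations are descriptions over libraries of 3 groups.

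Among 13640 genes searched, those most like each receptor gene across 20 libraries differed from gene to gene. Adra1a was nearest to Ep400 (r = 0.929, and 0.861 over 18 libraries), Ago2 (0.907) and Nwd1 (0.906). Adra1b was nearest to Gpr6 (0.802, and 0.793 over 18), Xlr3a (0.679) and Otx1 (0.674), and Adra1d to Acot3 (0.838), Ptk2 (0.815) and Syn1 (0.812). For Adra2a the nearest were Wee1 (0.801), Pam (0.792) and Ufl1 (0.760). Adra2c was nearest to Fam131a (0.912), Pkig (0.910) and Limd2 (0.910), and Adrb1 to Rab15 (0.938), Prkce (0.938) and Stk32c (0.932). Over 18 libraries the values of Adra2c with these genes were 0.701, 0.642 and 0.616, and those of Adrb1 0.455, 0.336 and 0.411. As the highest of 13640 genes, all such values are raised by the selection itself. Hrh1 was nearest to Stau1 (0.820), Nob1 (0.800) and Hspa1a (0.795). Hrh2 was nearest to Otx2 (0.783, and 0.786 over 18), Rasd2 (0.754) and Coro2a (0.751), and Hrh3 to Ankrd13b (0.808), Ssbp4 (0.808) and Rundc3a (0.805).

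In the fit of all 20 libraries the genes around the receptors also gave no call. Of 3 further receptor genes listed, Adrb3 was tested: the beta-3 receptor gene stood at 0.895 to 1.48 CPM in control and 1.01 to 2.11 in ad libitum libraries, with a log2 fold change of 0.45 ± 0.15 (SE, edgeR adjusted p = 0.226), and it overlaps an antisense gene. Adra2b was present at 0.362 CPM in the control group on average, below the filter. For the enzymes and transporters of noradrenaline and adrenaline, 7 of 10 genes were tested and 0 passed in any comparison. Ddc, which makes dopamine from L-DOPA, had -0.22 ± 0.08 for ad libitum against control (edgeR adjusted p = 0.288), and Maoa, which breaks down monoamines, 0.19 ± 0.07 for pair-fed against ad libitum (edgeR adjusted p = 0.287). Ddc was at -0.14 without ad libitum library 1, and Maoa at 0.07 without libraries 1 and 3. Dbh, the enzyme that makes noradrenaline, was at 0.665 CPM or below and at 0 in 4 of the 20 libraries, and the noradrenaline transporter gene Slc6a2 at 0 in 8, so transcripts that define noradrenergic cell bodies were near 0 in these slices.

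All 7 genes of histamine synthesis, transport and breakdown were tested, and 0 passed in any comparison. Hdc, the enzyme that makes histamine, was present in all 20 libraries at 47.3 to 87.7 CPM. The smallest p-values were those of Slc22a3, a transporter of histamine and monoamines (0.28 ± 0.14 on the log2 scale, edgeR adjusted p = 0.364), and Hnmt, which methylates histamine (0.13 ± 0.07, edgeR adjusted p = 0.392), both for pair-fed against ad libitum risperidone. Slc22a3 was at 0.19 without ad libitum library 1. Downstream, 0 of 13 genes of the Gq arm and 0 of 19 of the Gs and Gi arms passed in any comparison over all 20 libraries. The same held for 0 of 11 receptor kinase, arrestin and RGS genes. The medians of these lists, in this order, were 0.08, 0.02 and 0.08 for ad libitum against control, where that of all genes was 0.01. Without ad libitum library 1 the list medians were 0.08, 0.01 and 0.01. Plcb1, a phospholipase C of the Gq arm, had 0.47 ± 0.16 (edgeR adjusted p = 0.241) and Adcy1, a calcium-stimulated adenylyl cyclase, 0.75 ± 0.24 (edgeR adjusted p = 0.211), both for ad libitum against control. Without ad libitum library 1 these were 0.21 and 0.29. Prkca, a protein kinase C gene, had -0.36 ± 0.11 for pair-fed against ad libitum (edgeR adjusted p = 0.197), or -0.20 without ad libitum library 1. Adcy6, an adenylyl cyclase, had -0.23 ± 0.07 for pair-fed against control (edgeR adjusted p = 0.204). Without ad libitum libraries 1 and 3 it was -0.23 ± 0.05 and passed the threshold (edgeR adjusted p = 0.0270). It did not pass without library 1 alone (edgeR adjusted p = 0.113) or library 3 alone (edgeR adjusted p = 0.0688). Rgs2, which shortens Gq signals, had -0.26 ± 0.06 for ad libitum against control (edgeR adjusted p = 0.105), and Grk2, which phosphorylates active receptors, -0.09 ± 0.04 between the risperidone groups (edgeR adjusted p = 0.349). In ad libitum library 1 the summed level of the Gq arm genes was 1805 CPM, against 925.3 to 1113 CPM in the other 19 libraries.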

How the data were processed

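RNA of hypothalamus slices was sequenced in 20 libraries. The authors deposited 1 table of raw counts per Ensembl gene, whole numbers with no normalization. STAR, featureCounts and DESeq2 and the builds GRCm38 and mm10 are named in the submitters' processing notes, without versions. The release of the annotation used for counting and its strand setting were not given in the sources used here. Symbols came from GENCODE M21 (GRCm38): 55230 genes matched and 241, with 0.0035% of the counts, did not. Counts were tested in edgeR 4.0.16 (R 4.3.3) by its quasi-likelihood test with trimmed-mean (TMM) size factors, the filterByExpr filter (minimum count 10) and 1 fit over the 3 groups. Of all genes, 17893 were tested, adjusted p-values are Benjamini-Hochberg over these, and the common biological coefficient of variation was 11.3%. CPM are relative to the TMM-scaled library size. Correlations used log2 CPM with a prior count of 2. The procedure was tested on simulated data. Totals ranged from 9748005 to 18606543 counts, and counting error alone limits Adra1d most. Fragments are not independent molecules, so depth covers counting error only.

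Groups came from the labels. No 2 libraries of a group agreed within sampling noise (57 pairs, lowest chi-square per degree of freedom 2.64). The receptor genes and lists were chosen with earlier results of these data known. All 9 receptor genes are named. From each other list every called gene (at most 4) or, with none, the 2 with the smallest p are named, and for each receptor gene the 3 genes of highest Pearson r among genes with a mean of at least 1 CPM. Alternatives were size factors by RLE, no filter, a mean of at least 1 CPM, DESeq2 1.42.0, limma 3.58.1 (voom with quality weights), pairs of groups alone, a replicate block, ad libitum libraries 1 and 3 left out, and each library left out in turn. The values of list genes and all medians without ad libitum library 1, 3 or both were added after the data were seen. Promoter windows came from RefSeq (GRCm38.p6), where 7 of the 9 genes matched. Whole-genome sequence and proteins were not used here.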

Additional observations from a re-analysis of the deposited data

Results flagged for a closer look

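Within each group of 6 or 7 libraries, a library was marked when its gap to the nearest other library, divided by the range of the group, passed Dixon's 95% critical value. Over 27 groups (9 genes in 3 groups) 5 values were marked, all high and all in the ad libitum risperidone group, where chance marks about 1 in 20 groups. Library 1 accounted for 4 of them, with 3.931 CPM of Adra1d, 17.597 CPM of Adra2c, 14.332 CPM of Adrb1 and 79.398 CPM of Hrh3. Library 3 gave the fifth, with 23.521 CPM of Adra1a. These 4 values of library 1 come from 1 sample and are not independent of one another. The 2 libraries are those that stand apart in cortical markers and in depth with ribosomal RNA.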

How the results depend on the processing

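None of the 9 receptor genes was called in any of the 4 comparisons under any of the 28 alternatives, though DESeq2 gave Adra1d no adjusted p in 2 comparisons. Among 246 receptor values per comparison the sign of the log2 fold change turned in 7 for ad libitum risperidone against control, 6 for the pair-fed group set against the same control, 11 between the risperidone groups and 14 with them pooled, none of them a called value. Hrh1 and Adra1b kept their sign in all 4. Adra1d also did where it was tested, but it passed the filter mostly through risperidone libraries, so its kept sign adds no support. The counts of called genes over the whole table moved more, from 11, 87, 71 and 59 in that order. DESeq2 called 110, 134, 170 and 99, and limma-voom 51, 223, 139 and 151. Pairs of groups fitted alone gave 3, 245, 31 and 18. Without ad libitum libraries 1 and 3 there were 48, 250, 142 and 193. Leaving out 1 library at a time gave 0 to 35, 66 to 166, 39 to 130 and 36 to 99, and each highest count came without ad libitum library 1. The count for ad libitum risperidone against control was 0 when any of control libraries 1 to 5, or 2 or 7 of the ad libitum group, was omitted. There, 1824 to 2303 genes had an unadjusted edgeR p under 0.05. Replicate numbers did not pair the libraries: same-numbered libraries correlated at -0.158 to 0.304 over 19 pairs, with 2 above 0.1. A replicate block gave 1 called gene for the first of these comparisons and moved the other counts by under 1.5 times. The cause of these shifts was not tested. Depth limits Adra1d, with 0 to 65 counts, and ad libitum library 3. Precision of the ad libitum group is limited by its spread: its median SD of log2 CPM over genes was 0.196, against 0.115 in the control and 0.125 in the pair-fed group.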

Other observations

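The 12 lists of marker genes of the cell types and regions that the slices could hold gave 3 called genes over the 4 comparisons. Of all genes, 0.0615% were called for ad libitum against control, 0.486% for pair-fed against control, 0.397% between the risperidone groups and 0.33% for both against control. Penk, the enkephalin precursor gene, is abundant in striatal projection neurons and also made in the hypothalamus. It rose with ad libitum risperidone by 0.39 ± 0.07 (log2, SE, edgeR adjusted p = 0.0343) and with pair-fed risperidone by 0.37 ± 0.07 (edgeR adjusted p = 0.00571), and the other 9 striatal markers did not pass. The connexin gene Gjb6, an astrocyte marker, fell by 0.36 ± 0.06 in the pair-fed group (edgeR adjusted p = 0.00452), 1 of 8 on its list. The glucose transporter gene Slc2a1, a marker of endothelial cells, fell by 0.44 ± 0.05 in the pair-fed group against control (edgeR adjusted p = 4.65e-05) and by 0.34 ± 0.05 against ad libitum (edgeR adjusted p = 0.00191), 1 of 7 on its list. The 2 comparisons with the control share its libraries.

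On the other 9 lists no gene passed, and the 2 with the smallest p (1 where only 1 was tested) follow as log2 values. Hypothalamus markers (13 tested) had -0.37 ± 0.08 for the galanin gene Gal (edgeR adjusted p = 0.0842) and -0.42 ± 0.11 for Fezf1, both ad libitum against control, where 12 of 13 values lay below 0. Library 1 had the lowest sum of these markers, and without it Gal was at -0.31 and Fezf1 at -0.38. Cortical markers had 3.94 ± 0.92 for Slc17a7 and 2.36 ± 0.70 for Neurod2 in the same comparison, which without library 1 were 1.35 and 0.59. Thalamus markers (10 tested) had 0.24 ± 0.07 for Rora and 0.77 ± 0.25 for Ramp3, ad libitum against control. Ependyma and tanycyte markers (7 tested) had 0.59 ± 0.16 for Rax between the risperidone groups and -0.64 ± 0.17 for Tmem212 ad libitum against control. Without ad libitum library 1 these were 0.57 and -0.49. Histaminergic neuron markers (5 tested) had -0.63 ± 0.21 for Lhx6 between the risperidone groups and -0.08 ± 0.09 for Maob ad libitum against control, which without ad libitum library 1 were -0.30 and -0.02, and Maob was at 0.03 without libraries 1 and 3. Lhx6 did not stand for its list: between the risperidone groups 3 of the 5 values lay above 0, with a median of 0.04. Lhx6 had 27.9 CPM in ad libitum library 1, against 6.00 to 11.2 in the others. Th, the noradrenergic marker past the filter, had 0.08 ± 0.11 pair-fed against control. Oligodendrocyte markers (7 tested) had 0.27 ± 0.16 for Mog pair-fed against control and 0.17 ± 0.14 for Mbp over both risperidone groups, the latter at 0.26 without ad libitum libraries 1 and 3. Microglia markers (7 tested) had 0.21 ± 0.09 for P2ry12 and 0.15 ± 0.08 for Cx3cr1, both pair-fed against control. Pericyte, smooth muscle and fibroblast markers (7 of 8 tested) had -0.44 ± 0.18 for Acta2 and -0.54 ± 0.24 for Col1a2 ad libitum against control.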
